A study of Mus musculus with 16 samples.

Results

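The 10 genes described here mark paraxial mesoderm, the tissue beside the neural tube that forms somites, or intermediate mesoderm, which forms kidney and gonad. They are Foxc1, Foxc2, Meox1, Meox2, Tcf15, Pdgfra, Osr1, Pax2, Pax8 and Wt1, taken as a list of names from 21887 protein-coding genes of the mouse build mm10. Their chromatin was read from ChIP-seq peak lists of CJ9 mouse embryonic stem cells directed to endoderm or mesoderm for 5 days. Wild-type cells (WT) were compared with cells whose labels give the genotype arid4b∆, a deletion in the gene for a Sin3-HDAC corepressor subunit, here spelled arid4b-delta. That corepressor removes acetyl groups from histones. All groups share the CJ9 line, the 5 days of differentiation and 8 min of formaldehyde fixation. Neither the extent of the deletion nor whether the mutant line is 1 clone is stated in the labels. Each genotype and lineage has 1 library for each of 3 marks, which gives 12 peak lists and no replicates, so no difference was tested and no p-value is given.

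Paraxial mesoderm is patterned by forkhead, bHLH and homeobox factors, and intermediate mesoderm by Osr1 and by the paired-box factors Pax2 and Pax8. In stem cells the promoters of such factors often carry H3K4me3, the mark of active and poised promoters, together with H3K27me3, the mark of Polycomb repression. H3K27ac marks active promoters and enhancers. A peak here is a region called in a library by the authors. A promoter peak overlaps the 1000 bp either side of either gene end, and the neighbourhood of a gene is the gene and 20 kb on either side. Covered length is the number of bases of a neighbourhood that lie in peaks of a library.

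The lists held 6150 to 35884 peaks, and their sequencing depth is unknown. For every mark and lineage the mutant list held more peaks than the WT list, so each comparison below is given with the same comparison over all genes. The labels were checked with markers. Among 5 mesoderm markers (T, Mesp1, Kdr, Tbx6 and Msgn1), promoter H3K27ac was called at 2 in WT mesoderm and at 0 in each of the other 3 libraries. None of 5 endoderm markers (Sox17, Foxa2, Gata6, Gata4 and Cxcr4) had it in any library, the endoderm libraries included. Of 5 pluripotency markers (Pou5f1, Nanog, Sox2, Zfp42 and Utf1), 4 had it in WT endoderm, 3 in arid4b-delta endoderm, 2 in WT mesoderm and 4 in arid4b-delta mesoderm. None of 4 fibroblast markers (Col1a1, Col1a2, Col3a1 and Thy1), genes of feeder cells, had it in any library.

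In all 12 lists, 225 peaks lay in the 10 neighbourhoods. Pax2 had 63 of them, Pdgfra 29, Foxc1 and Foxc2 28 each, Osr1 22, Wt1 20, Meox2 15, Tcf15 12 and Pax8 8. Meox1, a somite homeobox gene (gene 17285, chr11:101877510-101894354), had 0. The other 9 genes carried promoter H3K27me3 in every one of the 4 libraries. The share of all genes with promoter H3K27me3 was 14.4% in WT endoderm, 17.2% in arid4b-delta endoderm, 9.34% in WT mesoderm and 16.3% in arid4b-delta mesoderm. Promoter H3K4me3 was at 4 of the 10 genes in WT endoderm, 6 in arid4b-delta endoderm, 6 in WT mesoderm and 7 in arid4b-delta mesoderm, against 53.3% to 59.7% of all genes. With promoters taken at gene ends, no member had promoter H3K4me3 without promoter H3K27me3, whereas 43.2% to 48.3% of all genes were in that state. Promoter H3K27ac was called at Foxc1 and Pdgfra in WT mesoderm and nowhere else among the 10, against 26.6%, 26.4%, 29.6% and 31.5% of all genes in the same order of libraries.

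**Figure D1:**
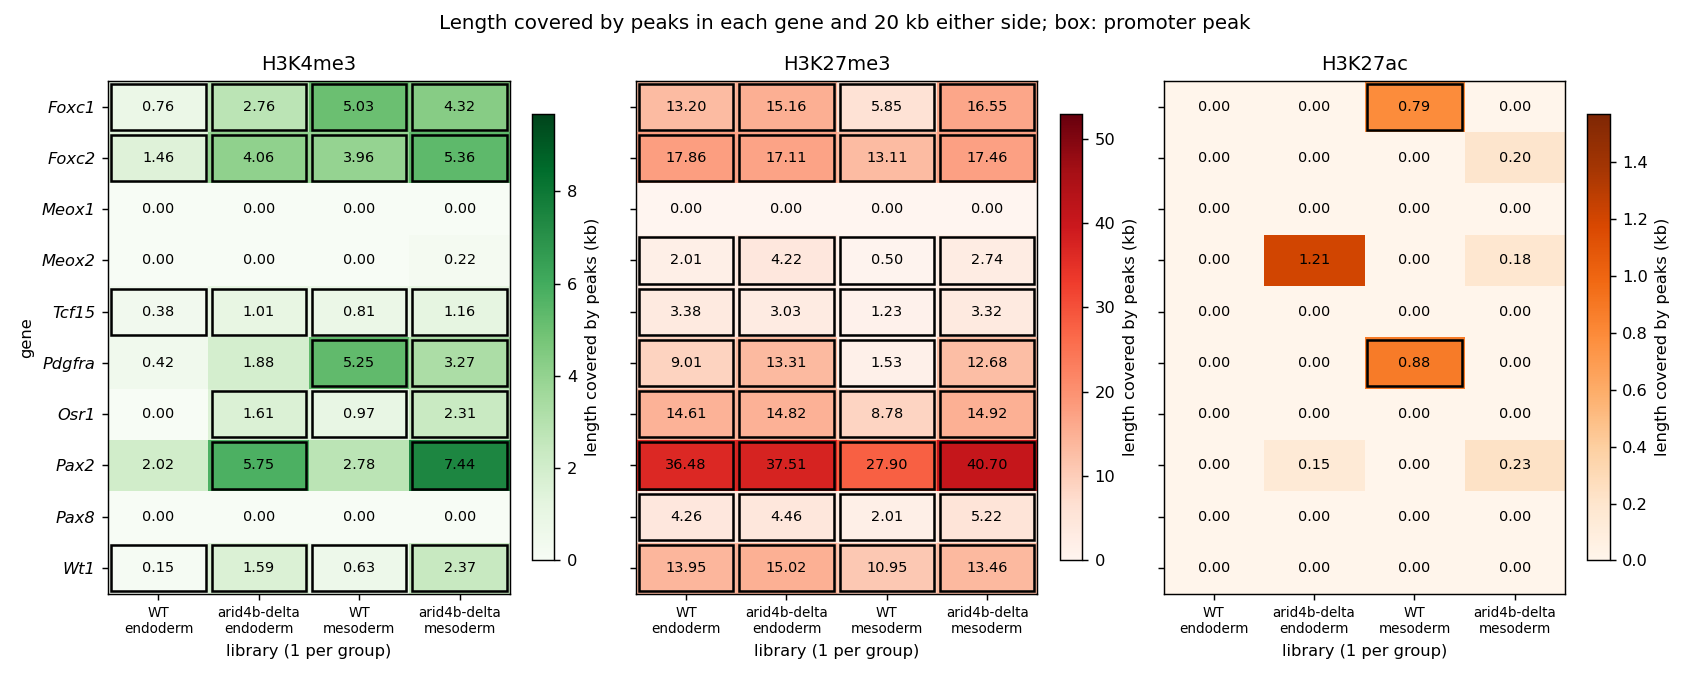
Covered length in kb of each gene and 20 kb either side, for each of the 3 marks (panels) and 4 libraries per mark (columns). Colour and number give the length, and a black box marks a promoter peak. H3K27me3 boxes fill 9 of 10 rows in all 4 libraries, and H3K27ac has boxes only for Foxc1 and Pdgfra in WT mesoderm.

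Foxc1 encodes a forkhead factor of presomitic and somitic mesoderm (gene 17300, chr13:31806646-31810635). It is shown with its sequence because it lies at the CpG-rich end of the members and was acetylated in WT mesoderm. The 250 bases before its RefSeq start (chr13:31806396-31806645, plus strand, build GRCm38.p6, which is mm10) hold 29 CG pairs, more than or equal to 92.3% of 21263 promoter windows of the same length. CG pairs are in capitals.
Foxc1: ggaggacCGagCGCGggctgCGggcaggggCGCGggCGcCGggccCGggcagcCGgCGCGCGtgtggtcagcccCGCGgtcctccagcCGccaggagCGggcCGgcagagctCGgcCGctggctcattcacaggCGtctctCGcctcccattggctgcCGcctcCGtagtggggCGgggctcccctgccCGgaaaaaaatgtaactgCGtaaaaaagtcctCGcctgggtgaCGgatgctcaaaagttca
Windows were searched on both strands for 5 motifs: the GC box GGGCGG (in 42.6% of all windows), the CAAT box CCAAT (35.4%), the TATA box TATAAA (11.6%), the T-box core TCACAC (11.1%) and the LEF/TCF site ATCAAAG (2.82%). The Foxc1 window holds 1 GC box and 1 CAAT box.

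In mesoderm the peaks in the neighbourhood of Foxc1 differed between genotypes in all 3 marks. Promoter H3K27ac was called in WT as a peak of 788 bp (chr13:31806890-31807677, fold enrichment 9.76, above 70.5% of its list). In arid4b-delta mesoderm the nearest H3K27ac peak lay 134836 bp from the gene. H3K4me3 covered 757 bp of the neighbourhood in WT endoderm, 2758 bp in arid4b-delta endoderm, 5033 bp in WT mesoderm and 4323 bp in arid4b-delta mesoderm. WT mesoderm was thus the library with the longest H3K4me3, and the mesoderm difference, arid4b-delta minus WT, was -710 bp. At the start itself H3K4me3 was nearly alike in mesoderm. The peak over the start was 2745 bp long in WT and 2743 bp in arid4b-delta. Within 1000 bp of the start H3K4me3 covered 1510 bp in WT and 1560 bp in arid4b-delta. H3K27me3 covered 13204 bp in WT endoderm, 15165 bp in arid4b-delta endoderm, 5850 bp in WT mesoderm and 16550 bp in arid4b-delta mesoderm. WT mesoderm had the shortest H3K27me3, in 4 separate peaks of 795 to 2791 bp, where arid4b-delta mesoderm had a continuous peak of 16550 bp.

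Pdgfra encodes the PDGF receptor alpha, a receptor tyrosine kinase of paraxial and other early mesoderm (gene 18595, chr5:75151322-75198206). Its RefSeq start lies 929 bp inside the annotated gene end. The 250 bases before that start (chr5:75152001-75152250, plus strand) hold 4 CG pairs, and 33.7% of windows hold as few or fewer. This sequence is shown as a contrast to Foxc1, since both genes were acetylated in WT mesoderm.
Pdgfra: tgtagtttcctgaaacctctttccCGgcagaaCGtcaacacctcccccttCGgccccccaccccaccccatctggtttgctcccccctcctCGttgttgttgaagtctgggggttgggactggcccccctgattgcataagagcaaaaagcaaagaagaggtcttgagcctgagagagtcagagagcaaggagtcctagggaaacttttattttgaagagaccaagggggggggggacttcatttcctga
None of the 5 motifs was found in this window.

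Pdgfra had 4 H3K27ac peaks in WT mesoderm, of 155, 330, 195 and 201 bp, with their near edges 3206, 2413 and 639 bp before the gene end and 1615 bp past it. The last of these lay 686 bp past the RefSeq start. The promoter peak (chr5:75150489-75150683) had a fold enrichment of 6.40 and stood above 41.5% of its list. In the other 3 H3K27ac libraries the nearest peak was 106788 to 106942 bp away. H3K4me3 covered 417 bp in WT endoderm, 1882 bp in arid4b-delta endoderm, 5254 bp in WT mesoderm and 3268 bp in arid4b-delta mesoderm. In WT mesoderm these were 3 peaks of 589, 3053 and 1612 bp, and in arid4b-delta mesoderm 6 peaks of 173 to 1255 bp. H3K27me3 covered 9014, 13309, 1530 and 12680 bp in the same order. WT mesoderm had 3 short H3K27me3 peaks (196, 526 and 808 bp), none of them within 1000 bp of the RefSeq start, where H3K4me3 covered 1598 bp, and arid4b-delta mesoderm had a peak of 12680 bp across it.

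**Figure D2:**
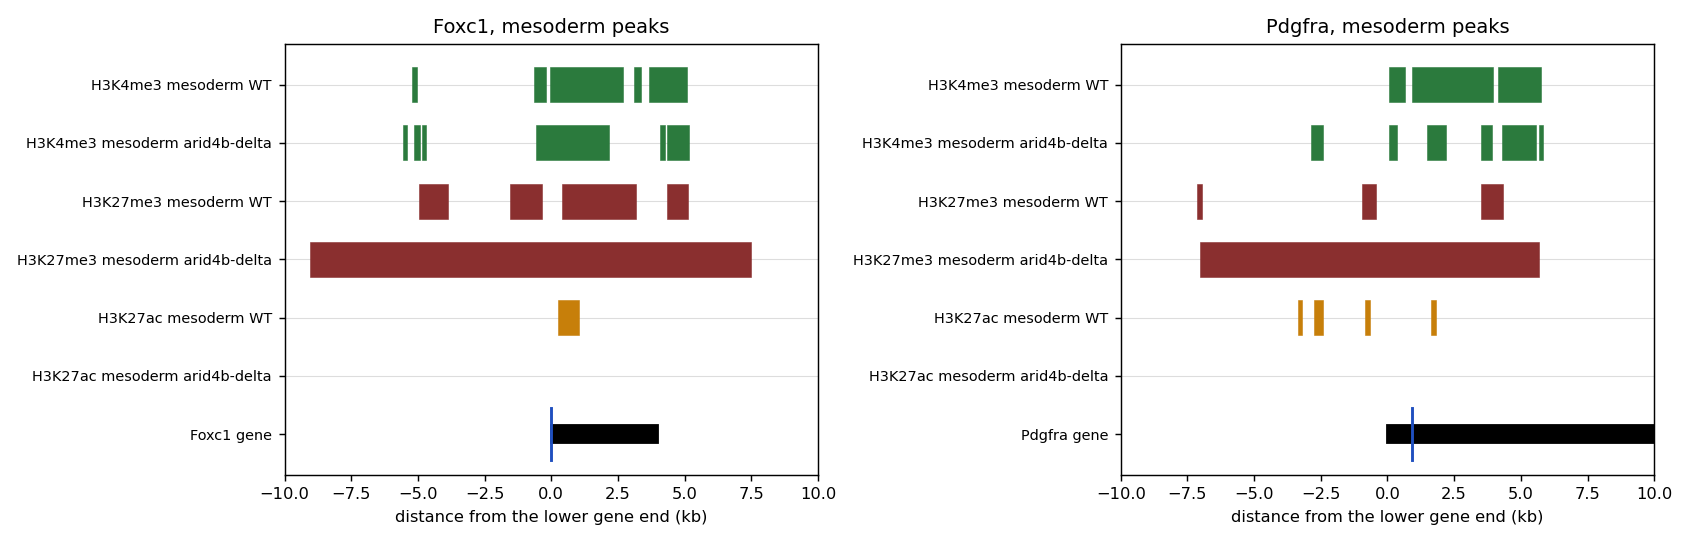
Mesoderm peaks at Foxc1 (left) and Pdgfra (right), by distance from the gene start in kb. Coloured bars are peaks of each mark and genotype, the black bar is the gene and the blue line its RefSeq start. H3K27ac is drawn in WT only, and H3K27me3 in arid4b-delta is a continuous bar of 16550 bp at Foxc1 and 12680 bp at Pdgfra.

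These were the only members among the 10 with promoter H3K27ac in WT only, a state of 3.71% of all genes, and 0 were in arid4b-delta only (5.62% of all genes). In endoderm 0 members had it in either genotype (4.7% of all genes in WT only and 4.49% in arid4b-delta only). Foxc1 and Pdgfra were also the 2 members whose H3K4me3 was longer over the neighbourhood in WT mesoderm than in arid4b-delta mesoderm. Within 1000 bp of the Foxc1 start it was not longer in WT (1510 bp, and 1560 bp in arid4b-delta). Of 16192 genes with any H3K4me3 in their neighbourhood, 2.44% were longer in WT and 97.5% longer in arid4b-delta. All 3 differences together (H3K27ac in WT only, longer H3K4me3 in WT, longer H3K27me3 in arid4b-delta) were met by 40 of 21887 genes. Besides Foxc1 and Pdgfra these included T, Cdx2, Mesp2, Dll1, Lfng, Rspo3 and Bmp7 among the other listed genes. This combination was chosen after its values were seen at Foxc1 and Pdgfra. The acetylation call of Pdgfra was lost with a window of 500 bp, with the upper 50% of each list by fold, or with a minimum of 500 bp. With peaks of the upper 50% of each list by fold, H3K4me3 at Pdgfra turned to 0 bp in WT and 1255 bp in arid4b-delta, and Foxc1 came to 2745 and 2743 bp. Under that setting H3K27me3 at Foxc1 also turned, to 1082 bp in WT and 0 bp in arid4b-delta. In the same 2 mesoderm libraries Nanog and Utf1 had promoter H3K27ac in arid4b-delta only, and T and Tbx6 in WT only. The part of those markers in the result was not tested, and fewer cells with a mark cannot be told apart from less of it per cell.

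H3K27ac and H3K27me3 peaks overlapped at both genes in WT mesoderm, by 635 of 788 acetylated bases at Foxc1 and by 195 of 881 at Pdgfra. The H3K27me3 peak in this overlap had, at Foxc1, a fold of 1.76, above 26.5% of its list, and a -log10 q of 1.06. At Pdgfra it had a fold of 2.78, above 92.2% of its list, and a -log10 q of 1.21. Each mark comes from its own library of many cells, so whether they lie on the same chromosomes cannot be told apart from a mixture of cells.

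Foxc2, the close relative of Foxc1 (gene 14234, chr8:121116171-121118895), kept promoter H3K4me3 and H3K27me3 in all 4 libraries and had no promoter H3K27ac. H3K4me3 covered 1462 bp in WT endoderm, 4062 bp in arid4b-delta endoderm, 3962 bp in WT mesoderm and 5361 bp in arid4b-delta mesoderm. WT endoderm was the low library. Part of each length lay within 1000 bp of the ends of other genes, with 998, 1243, 1305 and 1494 bp at Mthfsd and 0, 518, 0 and 825 bp at Foxl1 in the same order. The rest was 464, 2301, 2657 and 3042 bp, in which WT endoderm was again the low library. The promoter H3K4me3 of WT endoderm was a peak of 223 bp with a fold enrichment of 3.97, above only 4.24% of its list. H3K27me3 covered 17860, 17105, 13105 and 17458 bp, as a continuous peak in 3 libraries and as 4 peaks in WT mesoderm. In all 4 libraries H3K27me3 also lay over the neighbouring forkhead gene Foxl1, which begins 8790 bp past Foxc2. An H3K27ac peak of 199 bp in arid4b-delta mesoderm, 7941 bp before Foxc2, lies inside the end of the neighbouring gene Mthfsd and cannot be assigned to Foxc2.

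Tcf15, or paraxis, is a bHLH factor needed for epithelial somites (gene 21407, chr2:152143056-152149097). Its promoter carried H3K4me3 and H3K27me3 in all 4 libraries, each near the lower gene end. H3K4me3 was 1 peak per library, of 382 bp in WT endoderm, 1007 bp in arid4b-delta endoderm, 809 bp in WT mesoderm and 1160 bp in arid4b-delta mesoderm. H3K27me3 covered 3379, 3032, 1226 and 3322 bp in the same order. WT mesoderm was again the shortest for H3K27me3, and both arid4b-delta libraries exceeded their WT partner for H3K4me3. The non-coding gene Gm31535 lies 306 bp before the lower gene end of Tcf15, so peaks at that end may belong to either. In arid4b-delta, H3K27me3 peaks of 459 and 203 bp in endoderm and 223 bp in mesoderm lay inside Gm31535.

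Meox2, a homeobox factor of somites and limb muscle (gene 17286, chr12:37108540-37179534), carried promoter H3K27me3 without promoter H3K4me3 in all 4 libraries. The nearest H3K4me3 peak to its start was 726439 bp away in WT endoderm and 772171 bp away in WT mesoderm. Its promoter is shown because only Meox2 and Pax8 kept this state throughout. The 250 bases before the start (chr12:37108290-37108539, plus strand) hold 12 CG pairs, and 57.6% of windows hold as many or fewer.
Meox2: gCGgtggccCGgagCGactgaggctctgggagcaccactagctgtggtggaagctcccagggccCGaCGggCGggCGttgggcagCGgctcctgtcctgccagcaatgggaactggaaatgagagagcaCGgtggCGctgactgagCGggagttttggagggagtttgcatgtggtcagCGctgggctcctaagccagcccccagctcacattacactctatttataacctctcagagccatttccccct
The window has 1 TATA box and 1 GC box match. H3K27me3 around Meox2 covered 2013 bp in WT endoderm, 4221 bp in arid4b-delta endoderm, 497 bp in WT mesoderm and 2737 bp in arid4b-delta mesoderm. Both arid4b-delta libraries were longer than their WT partner.

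Meox2 also had weak H3K27ac inside and beyond the gene in arid4b-delta only. In endoderm these were 6 peaks of 146 to 348 bp with fold enrichments of 3.94 to 6.24, and in mesoderm 1 peak of 179 bp with a fold of 6.35. The endoderm peak from 52708 to 53055 bp and the mesoderm peak from 52611 to 52789 bp past the gene start overlapped each other. An H3K4me3 peak of 217 bp, from 52723 to 52939 bp, was called at the same place in arid4b-delta mesoderm. The WT lists had no H3K27ac peak within 569556 bp of the gene in endoderm or 951459 bp in mesoderm.

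Osr1, a zinc-finger factor and an early gene of intermediate mesoderm (gene 23967, chr12:9574442-9581500), had promoter H3K4me3 in 3 of 4 libraries. H3K4me3 covered 0 bp in WT endoderm, 1606 bp in arid4b-delta endoderm, 975 bp in WT mesoderm and 2308 bp in arid4b-delta mesoderm. WT endoderm was the only library with none. H3K27me3 covered 14609, 14819, 8781 and 14924 bp in the same order. In WT mesoderm it was broken into 6 peaks, and the other 3 libraries had 1 peak each. The H3K4me3 contrast depended on the threshold. With peaks of the upper 50% of each list by fold, H3K4me3 at Osr1 covered 0 bp in every library. With peaks of at least 500 bp it covered 0 bp in both endoderm libraries. Gm40268, a non-coding RNA gene, begins 466 bp past the upper end of Osr1, so peaks at that end may belong to either.

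Pax2 encodes a paired-box factor of the nephric duct and kidney (gene 18504, chr19:44746601-44838269). RefSeq gives it 3 starts, at the gene end and at 9151 and 10305 bp inside. The sequences before the first and the second are shown because the H3K4me3 call depended on which start was used.
Pax2 start 1 (chr19:44746351-44746600, plus strand): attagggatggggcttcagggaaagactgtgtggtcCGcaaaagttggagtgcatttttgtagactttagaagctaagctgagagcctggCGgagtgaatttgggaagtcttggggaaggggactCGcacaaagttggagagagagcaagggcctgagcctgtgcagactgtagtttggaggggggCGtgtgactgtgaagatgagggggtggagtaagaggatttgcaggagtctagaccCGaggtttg
Pax2 start 2 (chr19:44755502-44755751, plus strand): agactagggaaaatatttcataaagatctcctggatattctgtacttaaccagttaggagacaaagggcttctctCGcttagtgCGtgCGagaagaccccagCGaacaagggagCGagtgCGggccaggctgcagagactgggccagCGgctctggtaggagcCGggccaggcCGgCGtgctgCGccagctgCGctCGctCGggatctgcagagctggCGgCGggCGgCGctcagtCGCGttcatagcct
Start 1 has 5 CG pairs and start 2 has 20, with 37.8% and 78.5% of windows holding as many or fewer. Start 1 also has 1 T-box match and start 2 has 1 GC box. Start 3, which is not printed, has 25 CG pairs.

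At the gene end, Pax2 had H3K4me3 in arid4b-delta only in both lineages (peaks of 225 bp, fold 6.22, in endoderm and 418 bp, fold 7.27, in mesoderm). Within 1000 bp of each CpG-rich start inside the gene it had H3K4me3 in all 4 libraries. Within 1000 bp of start 3 H3K4me3 covered 876 bp in WT endoderm, 1739 bp in arid4b-delta endoderm, 1481 bp in WT mesoderm and 1865 bp in arid4b-delta mesoderm. With RefSeq starts in place of gene ends, the arid4b-delta-only count of H3K4me3 promoters went from 1 to 0 in mesoderm, and in endoderm it held Osr1 and Pdgfra in place of Osr1 and Pax2. Over the whole neighbourhood H3K4me3 covered 2025, 5754, 2780 and 7437 bp, and the number of peaks was 3, 9, 4 and 12 in the same order. Both arid4b-delta libraries were above both WT libraries.

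H3K27me3 at Pax2 formed the longest domain of the 10 genes. A peak of 32832 bp in WT endoderm, 32436 bp in arid4b-delta endoderm and 33463 bp in arid4b-delta mesoderm ran across the gene end and all 3 starts. WT mesoderm had 10 shorter peaks over the same stretch, of which the longest was 8011 bp. Covered length was 36483, 37506, 27904 and 40704 bp. Near the far end of the gene every library had an H3K4me3 peak, between 88602 and 90388 bp from the gene start, with fold enrichments of 9.39 in WT endoderm, 21.8 in arid4b-delta endoderm, 7.78 in WT mesoderm and 24.4 in arid4b-delta mesoderm. A short H3K27ac peak lay inside it in arid4b-delta only, of 146 bp in endoderm (fold 6.02) and 231 bp in mesoderm (fold 8.09). It stood 1866 and 1794 bp from the gene end, outside the promoter window. The non-coding gene 1700039E22Rik ends at 89337 bp, within this region, so the peaks may belong to either gene.

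Pax8, the paired-box partner of Pax2 in the nephric lineage (gene 18510, chr2:24420551-24475599), had no H3K4me3 peak in its neighbourhood in any library. The nearest peak lay 45874 to 45992 bp from its start. Its 250 bases before the start (chr2:24475600-24475849, minus strand) hold 6 CG pairs, as many as or more than 41.4% of windows.
Pax8: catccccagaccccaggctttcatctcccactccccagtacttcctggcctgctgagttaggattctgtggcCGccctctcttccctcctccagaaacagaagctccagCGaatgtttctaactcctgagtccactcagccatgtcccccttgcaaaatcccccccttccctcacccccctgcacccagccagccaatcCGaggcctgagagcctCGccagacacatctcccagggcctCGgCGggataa
The window has 1 GC box and 1 CAAT box match. For comparison, windows with WT mesoderm H3K4me3 within 1000 bp of their start had a median of 17 CG pairs and those without had 2. H3K27me3 at Pax8 covered 4257 bp in WT endoderm, 4460 bp in arid4b-delta endoderm, 2012 bp in WT mesoderm and 5217 bp in arid4b-delta mesoderm. The domain over the start was 3799, 3937, 2012 and 3937 bp long, so WT mesoderm was the shortest.

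Wt1 encodes a zinc-finger factor of nephron progenitors and podocytes (gene 22431, chr2:105126529-105173614). Its promoter carried H3K4me3 and H3K27me3 in all 4 libraries. H3K4me3 covered 146 bp in WT endoderm, 1588 bp in arid4b-delta endoderm, 634 bp in WT mesoderm and 2370 bp in arid4b-delta mesoderm. Both arid4b-delta libraries were longer than both WT libraries. H3K27me3 covered 13954, 15017, 10947 and 13456 bp in the same order. The H3K4me3 of WT endoderm was 1 peak with a fold enrichment of 5.07, above only 15.3% of its list. With peaks of the upper 50% of each list by fold, H3K4me3 covered 0 bp in both endoderm libraries and in WT mesoderm. In arid4b-delta mesoderm it covered 1203 bp. Endoderm H3K27me3 then covered 13954 bp in WT and 0 bp in arid4b-delta. The promoter peaks of both marks lay at the lower gene end, and the RNA gene Wt1os ends 19 bp before it, so they may belong to either gene.

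Between genotypes, promoter H3K4me3 was in arid4b-delta only at Osr1 and Pax2 in endoderm (5.37% of all genes) and at Pax2 in mesoderm (3.92%), and in WT only at 0 (0.101% and 0.119%). Promoter H3K27me3 differed at 0 of the 10 genes in either lineage. Over all genes, endoderm H3K27me3 was in the mutant only at 4.89% and in WT only at 2.05%, and mesoderm H3K27me3 at 7.68% and 0.726%. What differed was the length. In mesoderm H3K27me3 was longer in arid4b-delta at all 9 genes that had it and longer in WT at 0, against 88% and 11.9% of 7715 genes, with a median ratio of 2.59 over the 9 and 2.33 over the 3998 genes with H3K27me3 in both. In endoderm 7 were longer in arid4b-delta and 2 (Foxc2 and Tcf15) in WT, against 77.9% and 21.8% of 10125 genes, and the median ratio was 1.05 beside 1.46 over all. The mesoderm median was thus near that of all genes, and the endoderm median was below it.

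The members' H3K27me3 in WT mesoderm was in 36 peaks with 71852 bp in all, and in arid4b-delta mesoderm in 19 peaks with 127048 bp. A peak over 10 kb was present at 5 genes in WT endoderm, 6 in arid4b-delta endoderm, 0 in WT mesoderm and 6 in arid4b-delta mesoderm. Over all genes the shares were 1.38%, 1.9%, 0.347% and 1.8%, so WT mesoderm was the lowest there too. All 36 of the WT mesoderm peaks overlapped an arid4b-delta peak, against 68.6% of all WT peaks. The WT mesoderm list was also the shortest of the 4 H3K27me3 lists, covering 6.91 Mb of the genome against 14.1 to 21.4 Mb. With the longer list of the pair cut by fold to the same number of peaks, 8 of the 9 genes stayed longer in arid4b-delta. Foxc2, whose arid4b-delta domain had a fold of 1.95, came to 0 bp in arid4b-delta. That setting does not equalise the bases covered.

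**Figure D3:**
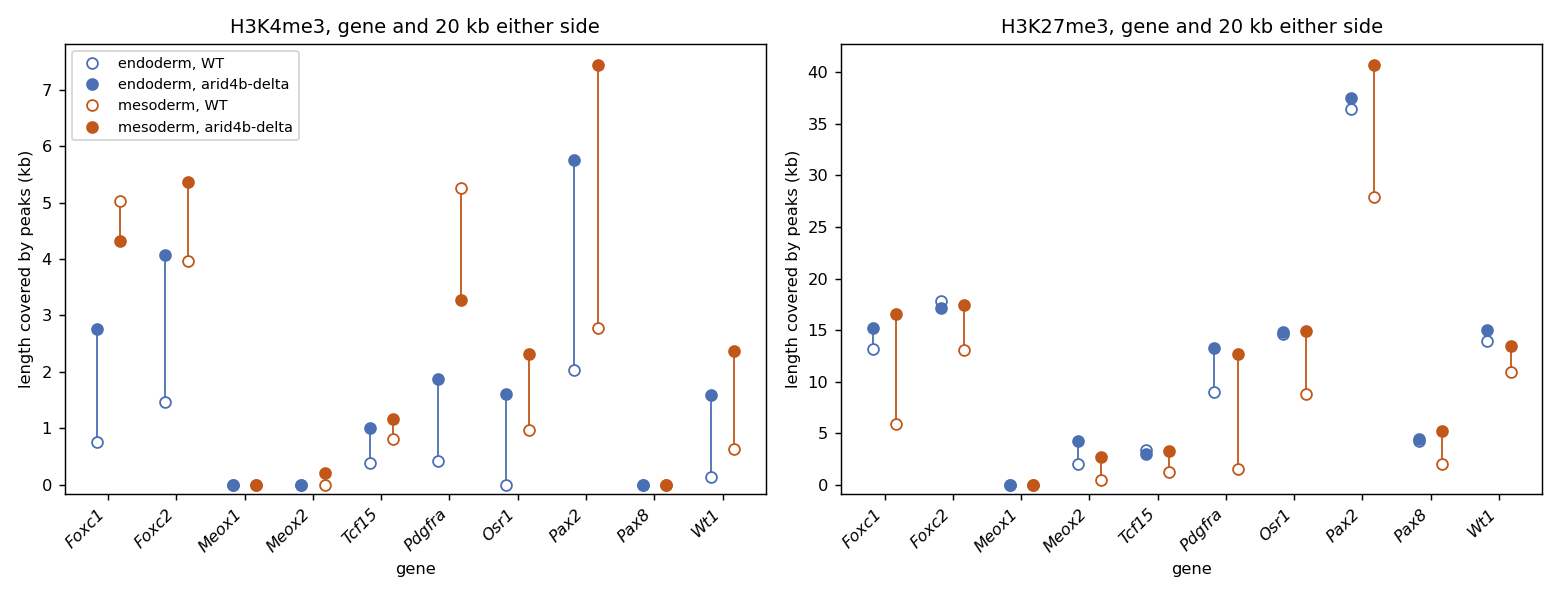
Covered length in kb of each gene and 20 kb either side, for H3K4me3 (left) and H3K27me3 (right). Open circles are WT, filled circles arid4b-delta, blue endoderm and orange mesoderm, with 1 library per circle. The orange filled circle is above the open one at all 9 H3K27me3 genes and below it for H3K4me3 only at Foxc1 and Pdgfra.

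H3K4me3 in endoderm was longer in arid4b-delta at all 7 genes that had it and in WT at 0, against 99% and 0.948% of 15934 genes. The median ratio was 3.22 over the 6 members with H3K4me3 in both genotypes and 1.56 over 14799 genes. In mesoderm 6 were longer in arid4b-delta and 2 in WT, against 97.5% and 2.44% of 16192 genes. The median ratio of 1.43 was close to the 1.36 of all genes. The share of the members' H3K4me3 bases that also lay in H3K27me3 was 54.4% in WT endoderm, 87.0% in arid4b-delta endoderm, 47.5% in WT mesoderm and 90.7% in arid4b-delta mesoderm. Over all H3K4me3 peaks these shares were 11.7%, 16.2%, 8.23% and 16.6%. Both arid4b-delta libraries were higher for the members and for all peaks.

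Between lineages, WT had promoter H3K4me3 in mesoderm only at Pdgfra and Osr1 (3.15% of all genes) and in endoderm only at 0 (0.548%). In arid4b-delta it was in mesoderm only at Pdgfra (1.48%) and in endoderm only at 0 (0.338%). H3K4me3 in WT was longer in mesoderm at all 7 genes that had it and in endoderm at 0, against 89% and 10.9% of 15383 genes, with a median ratio of 3.43 over 6 genes and 1.25 over all. H3K27me3 in WT was longer in endoderm at all 9 genes and in mesoderm at 0, against 84.4% and 15.5% of 7600 genes, with a median ratio of mesoderm to endoderm of 0.473 beside 0.549 over all. In arid4b-delta H3K27me3 was longer in mesoderm at 6 and in endoderm at 3, against 31.7% and 68.1% of 9947 genes, and the median ratio was 1.02 beside 0.901. H3K27ac at promoters was in WT mesoderm and not WT endoderm at 2 genes, Foxc1 and Pdgfra, a state of 6.36% of all genes, and in WT endoderm alone at 0 (3.39%). In arid4b-delta it differed between lineages at 0, against 7.43% in mesoderm only and 2.36% in endoderm only.

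H3K27ac anywhere in the neighbourhood was in arid4b-delta only at Meox2 and Pax2 in endoderm (17.5% of all genes) and at Foxc2, Meox2 and Pax2 in mesoderm (12.2%). It was in WT only at 0 in endoderm (4.88%) and at Foxc1 and Pdgfra in mesoderm (4.13%). No member had it in both genotypes of a lineage, whereas of 21887 genes 9023 did in endoderm and 9522 in mesoderm. None of the 15 H3K27ac peaks near the members overlapped a peak of the other genotype. They were 5 WT mesoderm peaks, where 73.2% of the whole list overlapped, 7 arid4b-delta endoderm peaks, where 27% did, and 3 arid4b-delta mesoderm peaks, where 40.6% did.

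The pattern of promoter peaks over the 12 libraries was shared by Foxc2, Tcf15 and Wt1 (H3K4me3 and H3K27me3 in all 4 libraries, no H3K27ac). Each shared it with 999 other genes, 4.56% of all genes. The listed genes among these were Cxcr4, Emx2, Eomes, Foxa2, Foxd1, Foxf1, Gata6, Gdnf, Hand2, Kdr, Lhx1, Nkx3-2, Npnt, Osr2, Pax3, Pax7, Ret, Six2, Sox1, Tbx18 and Wnt4. Meox2 and Pax8 shared theirs with 86 other genes each, Gata3 and Pax1 among them. Foxc1 shared its pattern with 28 genes, of which Cdx2 was listed, Osr1 with 263, among them Hand1, Mesp1, Nkx2-5, Pax6 and Sox17, and Pax2 with 112, among them Pax9 and Uncx. With promoters taken at gene ends, no other gene had the pattern of Pdgfra. Its pattern was different within 1000 bp of its RefSeq start. There H3K4me3 covered 170 bp in arid4b-delta endoderm, and no H3K27me3 peak was called in WT mesoderm. Meox1, with no promoter peak in any library, shared that with 7842 genes, among them Col3a1, Elf5, Msgn1, Myf5, Pdgfb, Pdgfd, Pdgfrb and Ripply1.

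Other genes of mesoderm patterning were taken from companion lists. These lists were chosen with earlier results of these data known, so their counts describe the libraries and are not independent support for the members. Of 20 further paraxial genes, 8 had promoter H3K27ac in WT mesoderm and 0 in arid4b-delta mesoderm, against 29.6% and 31.5% of all genes. These 8 were thus in WT only, a state of 3.71% of all genes. They were Tbx6 (fold enrichment 7.73), a T-box factor of presomitic mesoderm, Mesp2 (5.57), a segmentation factor, the Notch ligands Dll1 (9.41) and Dll3 (6.18), Lfng (8.66), a modifier of Notch, Hes7 (5.45), a segmentation clock repressor, Rspo3 (4.88), a secreted enhancer of Wnt signalling, and Twist1 (7.76). Promoter H3K27me3 was in arid4b-delta only at 7 of the 20 (Mesp2, Ripply2, Dll1, Dll3, Lfng, Rspo3 and Twist1), and H3K4me3 at Uncx, Pax9 and Myod1, with Mesp2 in WT only. Rspo3 and Twist1 were added to the named H3K27ac genes, and Twist1 to the H3K27me3 genes, after their values were seen.

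Of 16 further intermediate mesoderm genes, 3 had mesoderm promoter H3K27ac in each genotype, against 29.6% of all genes in WT and 31.5% in arid4b-delta. Bmp7, a growth factor needed for nephron progenitors (fold 7.63), was in WT only, a state of 3.71% of all genes. H3K27me3 was in arid4b-delta only at Sall1, Bmp7 and Wnt9b (7.68% of all genes). None of 10 lateral plate genes had promoter H3K27ac in any library, against 26.4% to 31.5% of all genes. Mesoderm H3K27me3 there was in arid4b-delta only at Isl1, Bmp4 and Tbx4 (7.68% of all genes) and in WT only at Tbx20 (0.726%). H3K4me3 was in arid4b-delta only at Bmp4 and Tbx4 (3.92%). Of the 5 other PDGF ligands and receptors, the ligand gene Pdgfc had mesoderm H3K27ac in arid4b-delta only (fold 9.82, a state of 5.62% of all genes). Pdgfa had mesoderm H3K27me3 in arid4b-delta only (7.68%). Among the marker lists, mesoderm H3K27ac was in WT only at T, Tbx6 and the trophoblast gene Cdx2 (3.71% of all genes). It was in arid4b-delta only at Nanog, Utf1 and the neural gene Nes (5.62%). H3K27me3 was in arid4b-delta only at T, Nes and Thy1 (7.68%) and in WT only at Sox2 and Utf1 (0.726%). H3K4me3 was in arid4b-delta only at Nanog, Zfp42 and Col1a1 (3.92%).

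**Figure D4:**
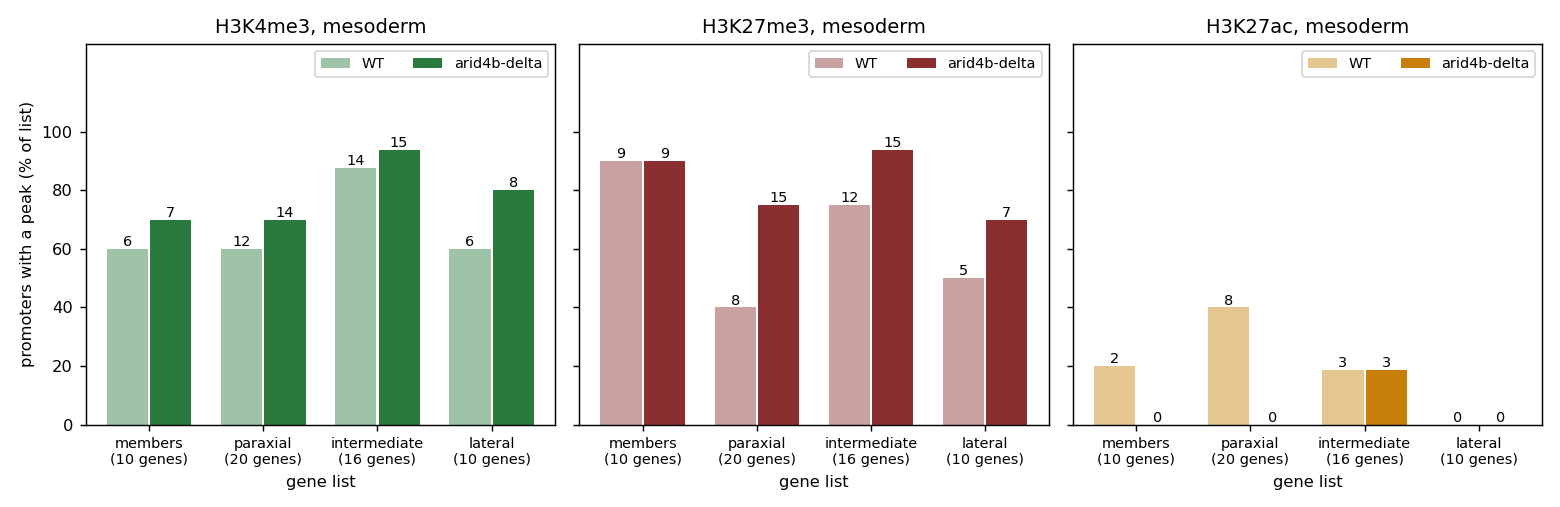
Promoters with a mesoderm peak, as a percentage of each gene list, for the 3 marks (panels), with WT pale and arid4b-delta dark. Numbers over the bars are gene counts. The lists were chosen with earlier results of these data known. Promoter H3K27ac stood at 8 paraxial genes and 2 of the 10 members in WT and at 0 of both in arid4b-delta, and at 3 intermediate mesoderm genes in both genotypes.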

How the data were processed

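ChIP-seq peak lists of 12 libraries were used. The 4 input DNA samples were not used here. Per the submitters' processing notes the tools were Bowtie2, Picard and MACS2 on mm10, with versions and settings not given in the sources used here. The deposited lists hold, per peak, a score, the fold enrichment (a ratio), the -log10 p and the -log10 q of the authors' peak caller and, for narrow peaks, a summit position, another unit set by the authors. The authors deposited 1 list per library, and the lists have no header lines. By their column layout those of H3K4me3 and H3K27ac are narrow peaks and those of H3K27me3 broad peaks. Folds describe or rank peaks within a list. They depend on each library's background, so folds printed from different lists are not compared.

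Peaks were joined to protein-coding genes from RefSeq (assembly GRCm38.p6) by an overlap of at least 1 bp, with Python 3.11.15 and pandas 2.3.3. The overlap and coverage functions were tested on simulated peaks. The gene table gives no strand, so either gene end counts as a promoter. RefSeq promoter sequences were given for 5 of the 10 genes (Foxc1, Meox2, Pdgfra, Pax2 and Pax8), and their starts were an alternative. Peaks were not placed in exons or introns. Sequence windows are the 250 bases before a RefSeq start, of 17492 genes, and motifs were searched on both strands, overlapping matches included.

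The members and lists were chosen with earlier results of these data known. All 10 members are named. Companion genes are named where their promoter state differed between genotypes in mesoderm, at most 6 per mark and direction in list order, or where their pattern over the 12 libraries was that of a member. Some results of this kind are not reported here. Alternatives were windows of 500 and 2500 bp, RefSeq starts, lists cut by fold to equal numbers of peaks within a pair, and peaks in the upper 50% by fold. Others were peaks or coverage of at least 500 bp, neighbourhoods of 10 and 50 kb and distal peaks, over 2500 bp from gene ends. The alternatives on covered length were added after the data were seen.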

Additional observations from a re-analysis of the deposited data

Results flagged for a closer look

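At 4 results the genotype difference in covered length (arid4b-delta minus WT, gene and 20 kb either side) had opposite signs in the 2 lineages. Each rests on 1 library per group, and the difference between lineages was not tested. H3K4me3 at Foxc1 was 2001 bp longer in arid4b-delta endoderm than in WT, while in mesoderm the difference was -710 bp. H3K4me3 at Pdgfra was 1465 bp longer in arid4b-delta endoderm, and the mesoderm difference was -1986 bp. H3K27me3 at Foxc2 differed by -755 bp in endoderm and by 4353 bp in mesoderm. H3K27me3 at Tcf15 differed by -347 bp in endoderm and by 2096 bp in mesoderm. Both endoderm H3K27me3 differences are small beside covered lengths of 17860 bp at Foxc2 and 3379 bp at Tcf15 in WT. Some signs turned with the setting. The endoderm H3K27me3 difference at Foxc2 was 55 bp with 10 kb either side and 2241 bp with 50 kb. At Tcf15 it stayed at -347 bp with 10 kb and was 114 bp with 50 kb. In lists matched in number of peaks, the mesoderm difference at Foxc2 was -13105 bp. In the upper 50% by fold, the mesoderm H3K4me3 difference at Pdgfra was 1255 bp.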

How the results depend on the processing

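Counts below are members of the 10, and 107 of 148 recomputed counts stayed within 1.5 times the reported one. That tally includes counts of 0 that stayed 0, and it ignores which genes were counted. With 2500 bp windows, endoderm H3K4me3 in arid4b-delta only stayed at 2 but held Pdgfra and Osr1 in place of Osr1 and Pax2. With 500 bp windows, mesoderm H3K27ac in WT only became 1 (Foxc1) and mesoderm H3K27me3 in arid4b-delta only 1 (Tcf15). With 2500 bp windows, H3K27ac in arid4b-delta only became 1 in each lineage (Pax2), and mesoderm H3K4me3 in arid4b-delta only 0. With RefSeq starts the latter was also 0, and mesoderm H3K27me3 in arid4b-delta only was 1 (Pdgfra). In lists matched in number of peaks, mesoderm H3K27me3 in WT only became 1 (Foxc2). Neighbourhood H3K27ac in arid4b-delta only then became 0 in endoderm and 1 in mesoderm (Pax2). H3K27me3 was then longer in WT at 4 genes in endoderm and 1 in mesoderm.

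In the upper 50% of each list, H3K27me3 became WT only at 2 and arid4b-delta only at 2 in endoderm, and WT only at 2 in mesoderm. H3K4me3 in arid4b-delta only became 1 in endoderm and 2 in mesoderm, and promoter H3K27ac in WT only 1 in mesoderm (Foxc1). Neighbourhood H3K27ac became 1 in arid4b-delta only in each lineage and 1 in WT only in mesoderm. H3K27me3 was longer in WT at 4 genes in endoderm and 3 in mesoderm (Foxc1, Foxc2 and Pax8), and endoderm H3K4me3 longer in arid4b-delta at 4.

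With peaks of at least 500 bp, H3K4me3 in arid4b-delta only became 4 in endoderm and 2 in mesoderm, and in WT only 1 in mesoderm (Pdgfra). Mesoderm H3K27me3 in arid4b-delta only became 1 (Meox2) and promoter H3K27ac in WT only 1 (Foxc1). Neighbourhood H3K27ac became 0 in arid4b-delta only in both lineages and 1 in WT only in mesoderm. With 500 bp of the window covered, H3K4me3 in arid4b-delta only became 5 in endoderm, mesoderm H3K4me3 in WT only 1 (Pdgfra), mesoderm H3K27me3 in arid4b-delta only 2 (Meox2 and Tcf15) and mesoderm H3K27ac in WT only 1 (Foxc1). With distal peaks only, neighbourhood H3K27ac in arid4b-delta only became 1 in each lineage (Meox2) and in WT only 1 in mesoderm (Pdgfra). With 10 and 50 kb, endoderm H3K27me3 was longer in WT at 1 and 0 genes. The cause was not tested for any of these, beyond fewer peaks entering shorter lists.

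No paired analysis was possible because each group has 1 library and no result comes from a test. Depth is unknown, so a lack of a peak says only that none was called.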
